A study of Arabidopsis thaliana with 18 samples.

Results

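The 36 genes described here encode the enzymes, carriers and peroxins with which a germinating Arabidopsis thaliana seed breaks down its storage oil. They were chosen by locus from general knowledge of the pathway and comprise 4 lipases and oil body proteins, 5 proteins of fatty acid import and activation, 11 enzymes of beta-oxidation, 8 enzymes of the glyoxylate cycle and gluconeogenesis, and 8 peroxins. Earlier results of these data were known when the list was made. The members are 36 of the 33602 gene models in each count file. All 36 were among the 18061 models with enough counts to be tested. Polyadenylated RNA was sequenced from seeds of the mpk8 line, of the line labelled tcp14 and of wild type, each taken either dry or after 24 h on wet filter paper at 25 °C in darkness, with 3 libraries in each of the 6 groups. The series describes both lines as knock outs, of a mitogen-activated protein kinase (MPK8) and of a TCP transcription factor (TCP14), and the imbibed seeds of every genotype are labelled dormant. Dry seeds received no treatment. Plants were grown on soil at 21 °C. No source used here says whether the 3 libraries of a group came from separate plants, seed lots or germination dishes, so the p-values measure only the spread between these samples.

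Arabidopsis seeds store carbon as triacylglycerol in oil bodies. Lipases release fatty acids, which are taken into the peroxisome, where acyl-CoA synthetases activate them and beta-oxidation shortens them to acetyl-CoA. The glyoxylate cycle turns acetyl-CoA into organic acids, and phosphoenolpyruvate carboxykinase directs these to sugar synthesis for the seedling. Peroxins build the peroxisome and import its matrix proteins.

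Libraries held 12170793 to 21233207 counted read pairs. Levels are given as CPM, counts scaled to 1000000 pairs, on effective library sizes from the trimmed mean of M values (TMM), whose factors were 1.25 to 1.26 in imbibed mpk8, 1.16 to 1.33 in imbibed libraries labelled tcp14, 1.56 to 1.60 in imbibed wild type and 0.707 to 0.777 in dry seeds. Because the factors differ between groups, counts of calls, and most single genes whose call was lost or reversed, are also given for scaling on plain library totals. That scaling moved the median log2 fold change of all genes by 0.82, 0.73 and 1.09 for imbibed over dry seeds in mpk8, tcp14 and wild type, and by -0.33 for either imbibed line over wild type. MPK8 stood at 4.05, 4.77 and 4.12 CPM in mpk8, 11, 11.6 and 9.84 CPM in tcp14 and 11.1, 11.5 and 12.7 CPM in wild type after imbibition. Dry seeds held 3.85, 4.61 and 3.66 CPM in mpk8, 12.7, 13 and 11.7 CPM in tcp14 and 11.1, 11.1 and 12.1 CPM in wild type. The mpk8 libraries lay below wild type in both states, with log2 fold changes of -1.44 ± 0.104 imbibed and -1.49 ± 0.125 dry. TCP14 had 14.8, 15.8 and 16.4 CPM in mpk8, 36.6, 36 and 30.9 CPM in tcp14 and 13.7, 17.7 and 15.8 CPM in wild type after imbibition. In dry seeds it had 7.07, 7.63 and 6.59 CPM in mpk8, 44.5, 43.5 and 44.2 CPM in tcp14 and 5.77, 6.38 and 8.43 CPM in wild type. The tcp14 libraries thus lay above wild type, against a knock-out label, with log2 fold changes of 1.14 ± 0.0906 imbibed and 2.69 ± 0.114 dry (on totals 0.81 and 2.72, both called). A level of counted pairs over the whole model does not show whether a functional transcript was made. The 8 seed storage and maturation markers together took 12.9% ± 0.124 of pairs in imbibed mpk8, 15.1% ± 1.74 in imbibed tcp14 and 7.22% ± 0.64 in imbibed wild type (SD, n = 3 each), against 14.1%, 14.8% and 14.6% in the dry groups of the same genotypes. This sum does not follow each marker. On TMM factors CRA1 was called higher with imbibition in both lines, with log2 fold changes of 0.58 in mpk8 and 0.61 in tcp14. All the other storage markers were called lower there, RAB18 the most at -3.46 and -3.1. In wild type all 8 were called lower. The photosynthetic marker RBCS1A averaged 72.7 CPM in imbibed mpk8, 137.5 CPM in imbibed tcp14 and 247.9 CPM in imbibed wild type, and the 3 seed coat markers were near 0 in every group. All 8 storage markers were called higher in both imbibed lines than in imbibed wild type. Of the 2 endosperm markers, EPR1 was called higher there (log2 fold change 1.12 in mpk8 and 0.84 in tcp14) and MAN7 lower (-0.64 and -0.56). The 2 pollen markers were called lower in dry mpk8, VGD1 at -0.91 and PGA4 at -0.87. In whole seeds, fewer cells of a type and less RNA per cell cannot be told apart.

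The 36 genes together took 2.15% ± 0.0459 of all counted pairs in imbibed mpk8, 2.14% ± 0.0855 in imbibed tcp14 and 2.73% ± 0.0659 in imbibed wild type (SD, n = 3 each). In dry seeds the shares were 1.54% ± 0.0106, 1.52% ± 0.0204 and 1.47% ± 0.0136 in the same order of genotypes. The share of pairs was thus larger after imbibition in every genotype, and the imbibed libraries of both lines (2.05% to 2.21%) did not overlap the imbibed wild-type libraries (2.66% to 2.78%). A share of pairs is on plain library totals. There the median log2 fold change of all genes with imbibition was 0.97 in mpk8, 0.83 in tcp14 and 1.23 in wild type. Over imbibed wild type it was -0.28 in mpk8 and -0.33 in tcp14, so these shifts are not particular to the members. Isocitrate lyase (ICL, AT3G21720), the first committed enzyme of the glyoxylate cycle, accounted for 1.14%, 1.10% and 1.24% of all pairs in imbibed mpk8, tcp14 and wild type. Per kb of gene model, ICL was the most abundant member in both states of wild type, with 3606 ± 63.1 CPM per kb after imbibition and 3609 ± 168 CPM per kb in dry seeds. Malate synthase (MLS, AT5G03860), which joins glyoxylate to acetyl-CoA, followed with 1199 ± 34.3 and 1551 ± 23.3 CPM per kb. The thiolase KAT2 (AT2G33150) held 516 ± 7.45 and 782 ± 25.9 CPM per kb, and the carboxykinase PCK1 (AT4G37870) 708 ± 39.9 and 517 ± 9.35 CPM per kb. Those 2 genes exchanged ranks between imbibed and dry wild type, and their libraries did not overlap in either state. At the low end, the thiolase KAT5 (AT5G48880) stayed below 1 CPM per kb in both states.

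**Figure D1:**
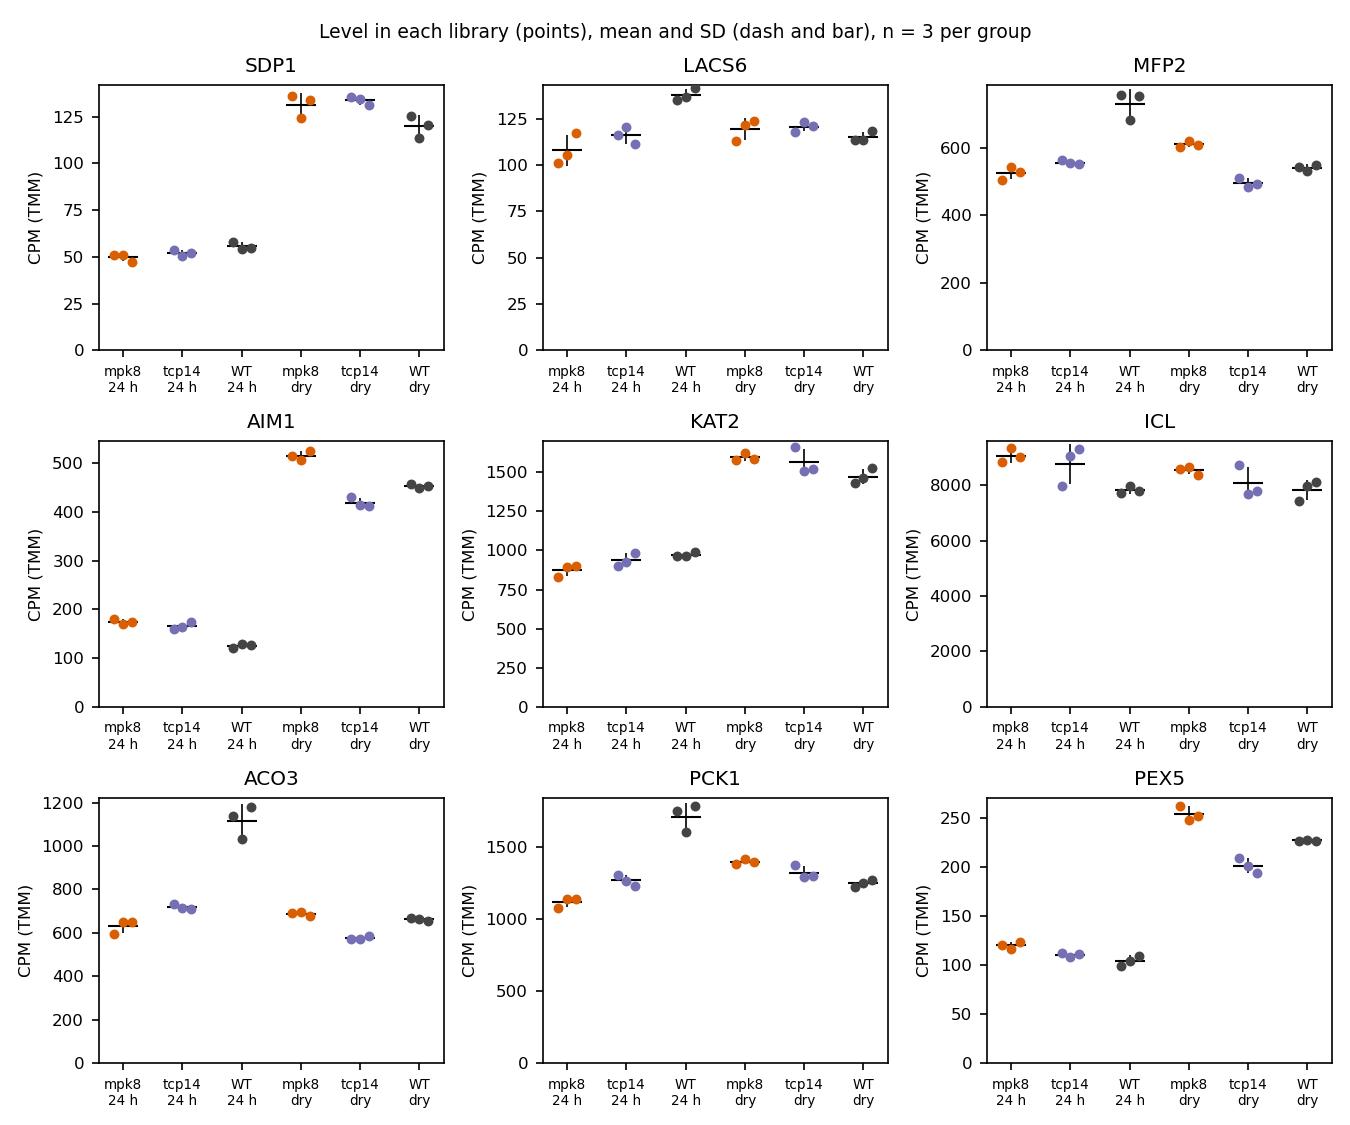
CPM on TMM-scaled library sizes (vertical axes, from 0) of 9 members in the imbibed groups (left) and the dry groups (right), with 1 point per library, the mean as a dash and the SD as a bar (n = 3). Among the imbibed groups ACO3, MFP2 and PCK1 are highest in wild type under both scalings, and AIM1 is lowest there, although on library totals AIM1 was not called in tcp14.

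Imbibition was compared with the dry state first. Fold changes are on the log2 scale throughout, on TMM factors unless stated, ± the standard error of the edgeR fit. Of the 36 members, 33 passed the edgeR quasi-likelihood test (Benjamini-Hochberg adjusted p under 0.05 over all genes) in mpk8, 32 in tcp14 and 34 in wild type, where 83.1%, 83.1% and 86.1% of all tested genes passed. The number of members called is therefore near the background. In mpk8 5 members rose and 28 fell, in tcp14 8 rose and 24 fell, and in wild type 11 rose and 23 fell. The median log2 fold change of the members was -0.87, -0.71 and -0.74 in that order, beside 0.15, 0.11 and 0.14 over all genes tested. On library totals the splits were 15 higher and 15 lower in mpk8, 16 and 15 in tcp14, and 20 and 10 in wild type, with medians of -0.05, 0.02 and 0.35. Every member that rose on TMM factors also rose on totals, and 15 of 28, 15 of 24 and 10 of 23 falls were called in both. Totals moved all genes up by a median of 0.82, 0.73 and 1.09 in that order of genotypes, which by itself tends to keep rises and remove falls. Over all tested genes, 53.4%, 52.7% and 53.4% of calls were higher on TMM factors and 77.5%, 75.6% and 79.6% on totals.

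Among the oil body proteins, 3 of 4 fell with imbibition and 1 rose in each genotype on TMM factors. Over all tested genes 38.7% fell and 44.4% rose in mpk8, 39.3% and 43.8% in tcp14, and 40.1% and 46% in wild type. SDP1 (AT5G04040), the lipase that starts oil hydrolysis in seedlings, stood at 51.2, 50.9 and 47.2 CPM in mpk8, 53.6, 50.4 and 51.9 CPM in tcp14 and 58.1, 54 and 55 CPM in wild type after imbibition. Dry seeds held 136, 124 and 134 CPM in mpk8, 136, 134 and 131 CPM in tcp14 and 125, 114 and 121 CPM in wild type. Imbibed and dry libraries did not overlap in any genotype, and the log2 fold change was -1.40 ± 0.0537 in mpk8, -1.36 ± 0.0539 in tcp14 and -1.10 ± 0.0539 in wild type (edgeR adjusted p at most 3.2e-15). On library totals SDP1 was still called lower in both lines, but in wild type the value was -0.02 and the call was lost. The related lipase SDP1-LIKE (AT3G57140) moved the other way, with 27.8, 27.7 and 30 CPM in mpk8, 19.6, 19.4 and 18.8 CPM in tcp14 and 30.6, 27.1 and 33.3 CPM in wild type after imbibition. Its dry libraries held 22.5, 20.4 and 19.9 CPM in mpk8, 12.9, 11.7 and 10.2 CPM in tcp14 and 19.3, 21.6 and 23.4 CPM in wild type. SDP1-LIKE thus rose in each genotype under either scaling, by log2 fold changes of 0.44 ± 0.0856 in mpk8, 0.73 ± 0.0956 in tcp14 and 0.51 ± 0.0871 in wild type on TMM factors. The alpha/beta-hydrolase AT3G14360 fell, with log2 fold changes of -1.04, -1.04 and -1.38 in mpk8, tcp14 and wild type. AT4G24160, annotated as an acyltransferase with triacylglycerol lipase activity, had 10.6, 11.5 and 11.5 CPM in mpk8, 10.7, 11.1 and 10.4 CPM in tcp14 and 8.42, 9.56 and 9.46 CPM in wild type after imbibition. In dry seeds it had 36.1, 36 and 37.4 CPM in mpk8, 35.7, 35.1 and 35.3 CPM in tcp14 and 36.9, 39.8 and 36.3 CPM in wild type. Its log2 fold change was -1.71 ± 0.0659 in mpk8, -1.72 ± 0.0672 in tcp14 and -2.05 ± 0.0683 in wild type, and AT3G14360 and AT4G24160 were called lower under both scalings in all 3 genotypes.

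Import and activation genes did not move together. The acyl-CoA synthetase LACS7 (AT5G27600) had 109, 110 and 108 CPM in mpk8, 121, 116 and 107 CPM in tcp14 and 139.5, 134 and 147 CPM in wild type after imbibition and 77.5, 73.6 and 77.3 CPM in mpk8, 77.5, 79.8 and 78.4 CPM in tcp14 and 73.5, 71.3 and 75.7 CPM in wild type in dry seeds. LACS7 rose in each genotype under either scaling, with 0.52 ± 0.0519 in mpk8, 0.54 ± 0.0519 in tcp14 and 0.93 ± 0.0526 in wild type. Its partner LACS6 (AT3G05970) had 101, 105 and 117 CPM in mpk8, 116, 121 and 111 CPM in tcp14 and 135, 137 and 142 CPM in wild type after imbibition. In dry seeds LACS6 stood at 113, 122 and 124 CPM in mpk8, 118, 123 and 121 CPM in tcp14 and 114, 114 and 118 CPM in wild type. LACS6 rose in wild type (0.26 ± 0.0551), did not pass in tcp14 (-0.06 ± 0.0549, edgeR adjusted p = 0.35) and in mpk8 was called lower on TMM factors at -0.15 ± 0.0549 but higher on totals at 0.67. On totals LACS6 was called higher in tcp14 too. The mpk8 call was lost without imbibed mpk8 replicate 1 or 2 or dry mpk8 replicate 2 or 3 (adjusted p 0.059 to 0.11). Of the ATP carriers of the peroxisome, PNC2 (AT5G27520) fell, with -1.60, -1.42 and -1.21 in mpk8, tcp14 and wild type, a call lost on totals in wild type. PNC1 (AT3G05290) was called lower on TMM factors, with -0.46, -0.26 and -0.45 and higher on totals in all 3.

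In beta-oxidation, enzymes of the same step moved by different amounts. Among the acyl-CoA oxidases, which carry out the first step, ACX1 (AT4G16760) had the largest fall of all members in each genotype on TMM factors. It stood at 94.7, 98.5 and 97.7 CPM in mpk8, 92.7, 100.1 and 109.5 CPM in tcp14 and 80.8, 86.2 and 89.5 CPM in wild type after imbibition and at 534, 563 and 544 CPM in mpk8, 468, 463 and 466 CPM in tcp14 and 492, 510.4 and 512 CPM in wild type in dry seeds. The log2 fold change was -2.50 ± 0.0573 in mpk8, -2.21 ± 0.057 in tcp14 and -2.56 ± 0.0577 in wild type (edgeR adjusted p at most 2.8e-20), and ACX1 was called lower on totals too. ACX3 (AT1G06290) had 119.8, 121 and 128 CPM in mpk8, 143, 134 and 128 CPM in tcp14 and 172, 166 and 182 CPM in wild type after imbibition. Dry seeds held 440, 440.1 and 436 CPM in mpk8, 482, 461 and 455 CPM in tcp14 and 402, 398 and 413 CPM in wild type, and the log2 fold change was -1.83 ± 0.0518 in mpk8, -1.79 ± 0.0517 in tcp14 and -1.22 ± 0.0509 in wild type. ACX3 was called lower under both scalings, though at only -0.13 on totals in wild type. ACX2 (AT5G65110) changed by -1.12 ± 0.0582 in mpk8, -0.67 ± 0.0581 in tcp14 and -0.22 ± 0.0575 in wild type, with a call of higher on totals in wild type and no call on totals in tcp14. ACX4 (AT3G51840) was lower, with -0.58 in mpk8 and -0.31 in tcp14 on TMM factors and higher in both on totals, while in wild type it did not pass (0.01 ± 0.0541). On totals ACX4 was called higher in wild type too.

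The 2 multifunctional proteins that hydrate and dehydrogenate the chain, MFP2 and AIM1, moved apart. AIM1 (AT4G29010) stood at 179.9, 171 and 174 CPM in mpk8, 159, 163 and 174 CPM in tcp14 and 121, 129 and 126 CPM in wild type after imbibition. Dry libraries had 514, 507 and 525 CPM in mpk8, 429.8, 414 and 412 CPM in tcp14 and 458, 448 and 452 CPM in wild type. AIM1 fell under both scalings in each genotype, with -1.56 ± 0.0477 in mpk8, -1.34 ± 0.0478 in tcp14 and -1.85 ± 0.0486 in wild type. MFP2 (AT3G06860) had 504, 542 and 528 CPM in mpk8, 562, 554 and 549.9 CPM in tcp14 and 755, 682 and 753 CPM in wild type after imbibition and 601, 619 and 609 CPM in mpk8, 510, 483 and 492 CPM in tcp14 and 543, 529.6 and 549 CPM in wild type in dry seeds. It rose in wild type (0.43 ± 0.0515) and in tcp14 (0.17 ± 0.0515), and in mpk8 it was called lower on TMM factors (-0.22 ± 0.0514) and higher on totals (0.61). The thiolase KAT2, which removes acetyl-CoA in the last step, stood at 830.5, 895 and 898 CPM in mpk8, 898, 924 and 985 CPM in tcp14 and 963, 962 and 987 CPM in wild type after imbibition. In dry seeds it held 1579, 1623 and 1586 CPM in mpk8, 1658, 1510 and 1521 CPM in tcp14 and 1428, 1464 and 1524 CPM in wild type. KAT2 was called lower on TMM factors, with -0.87 ± 0.0593 in mpk8, -0.74 ± 0.0592 in tcp14 and -0.60 ± 0.0591 in wild type, and on totals it was called higher in wild type at 0.49 and was not called in either line. KAT1 (AT1G04710), another peroxisomal thiolase, had log2 fold changes of 0.20, 0.10 and 0.35 in mpk8, tcp14 and wild type and did not pass in tcp14, though on totals it was called higher in all 3. KAT5, with 0.794, 0.687 and 1.04 CPM in mpk8, 1.36, 0.803 and 0.608 CPM in tcp14 and 1.22, 0.845 and 1.19 CPM in wild type after imbibition and 0.629, 0.529 and 0.244 CPM in mpk8, 0.0648, 0.0963 and 0.445 CPM in tcp14 and 0.385, 0.51 and 0 CPM in wild type in dry seeds, rested on 0 to 32 pairs per library. It was called higher in tcp14 and wild type and not in mpk8 (0.82 ± 0.489, edgeR adjusted p = 0.12), though on totals it was called higher in mpk8 too. IBR3 (AT3G06810), an acyl-CoA dehydrogenase-like protein of indole-3-butyric acid response, stood at 129, 124 and 130.1 CPM in mpk8, 125, 119 and 133 CPM in tcp14 and 90.9, 97.7 and 92.6 CPM in wild type after imbibition. Dry seeds held 393, 386 and 392 CPM in mpk8, 342, 317 and 329 CPM in tcp14 and 347, 364 and 365 CPM in wild type, and IBR3 fell under both scalings with -1.61 ± 0.0505 in mpk8, -1.39 ± 0.0506 in tcp14 and -1.94 ± 0.0515 in wild type. The enoyl-CoA hydratase ECH2 (AT1G76150) was lower, with -0.82, -0.48 and -0.62 on TMM factors, but on totals it was called higher in tcp14 and wild type and the mpk8 call was lost (0.01).

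**Figure D2:**
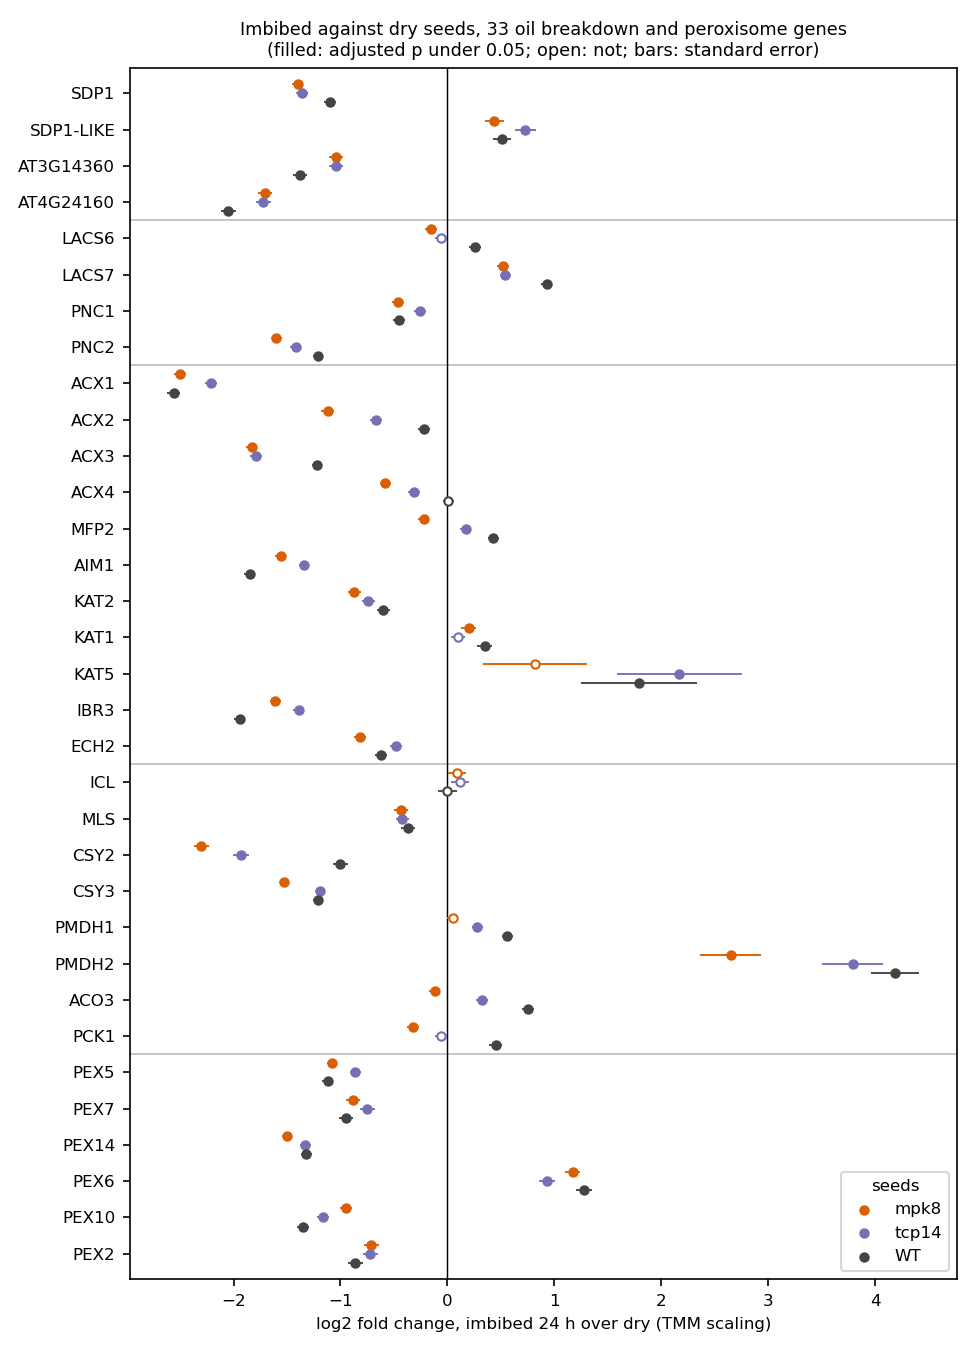
Log2 fold change of imbibed over dry seeds on TMM factors (horizontal axis) for 33 members, in the order lipases, import, beta-oxidation, glyoxylate cycle and peroxins from top to bottom, with the standard error as bars. Over all 36 members 28 were called lower in mpk8, 24 in tcp14 and 23 in wild type, of which 7, 4 and 7 were called higher on library totals.

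Upstream sequences of the TAIR10.1 genome, 250 bases before to 50 after the annotated start of each gene on its RefSeq annotation, were searched for 3 short motifs on both strands. The G-box CACGTG, a core element of many abscisic acid responsive promoters, lay in 4 of 36 members (11.1%) and in 7.68% of 27443 protein-coding genes. GTGGGNCC, a class I TCP element, lay in 2 members (5.56%) and in 1.32% of all windows. The RY element CATGCA lay in 1 member (2.78%) and in 9.72% of all windows. These are matches of letters only. The 3 sequences below are shown because they are the members with a G-box before the start. ACX1, CSY3 and PNC2 were all lower in imbibed than in dry seeds in each genotype on TMM factors (on totals PNC2 was not called in wild type). Most of the 36 members were lower there too, 28 in mpk8, 24 in tcp14 and 23 in wild type. A link between the motif and the fall was not tested. Each sequence is 250 bases in the gene's own direction, ends at the base before the start, overlaps no annotated exon and has the matches in capitals. The windows are chr4:9428896-9429145 for ACX1, chr2:17806074-17806323 for CSY3 and chr5:9716419-9716668 for PNC2, all on the minus strand of TAIR10.1.
ACX1: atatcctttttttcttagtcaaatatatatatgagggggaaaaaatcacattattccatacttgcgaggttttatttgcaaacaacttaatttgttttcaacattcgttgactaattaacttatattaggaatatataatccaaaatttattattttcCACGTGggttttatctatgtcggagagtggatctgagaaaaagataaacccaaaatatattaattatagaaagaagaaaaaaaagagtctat
CSY3: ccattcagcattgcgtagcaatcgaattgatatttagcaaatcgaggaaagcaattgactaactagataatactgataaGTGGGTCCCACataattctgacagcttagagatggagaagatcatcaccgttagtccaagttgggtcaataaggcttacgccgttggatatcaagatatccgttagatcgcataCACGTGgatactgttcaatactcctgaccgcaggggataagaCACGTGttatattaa
PNC2: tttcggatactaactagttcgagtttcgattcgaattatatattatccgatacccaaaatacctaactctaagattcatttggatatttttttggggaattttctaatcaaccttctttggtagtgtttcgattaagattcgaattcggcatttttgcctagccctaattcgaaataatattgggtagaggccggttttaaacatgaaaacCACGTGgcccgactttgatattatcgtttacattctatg
In ACX1 the first base of the G-box lies 92 bases before the start and in PNC2 39 bases before it. CSY3 holds G-boxes at 57 and 15 bases and, at 171 and 168 bases, 2 TCP matches on opposite strands that overlap each other. PEX6 has a TCP match 37 bases after its start, which is not printed.

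Glyoxylate cycle and gluconeogenesis genes divided by gene rather than as a block. ICL stood at 8849, 9355 and 9021 CPM in mpk8, 7966, 9062 and 9311 CPM in tcp14 and 7705, 7976 and 7804 CPM in wild type after imbibition. Dry seeds held 8593, 8674 and 8380 CPM in mpk8, 8733, 7692 and 7810 CPM in tcp14 and 7423, 7962 and 8120 CPM in wild type. Its log2 fold change of imbibed over dry was 0.09 ± 0.0853 in mpk8, 0.12 ± 0.0853 in tcp14 and 0.00 ± 0.0853 in wild type, which did not pass in any genotype (without imbibed tcp14 replicate 1 the tcp14 value was 0.19 and passed), while on totals ICL was called higher in all 3 by 0.91, 0.84 and 1.09. MLS stood at 2464, 2474 and 2442 CPM in mpk8, 2321, 2284 and 2376 CPM in tcp14 and 2358, 2232 and 2265 CPM in wild type after imbibition and 3331, 3374 and 3260 CPM in mpk8, 3403, 2961 and 2998 CPM in tcp14 and 2931, 2926 and 3005 CPM in wild type in dry seeds. MLS was called lower on TMM factors, with -0.43 ± 0.0654 in mpk8, -0.42 ± 0.0654 in tcp14 and -0.37 ± 0.0654 in wild type, and higher on totals in all 3 genotypes. The peroxisomal citrate synthase CSY3 (AT2G42790) was lower under both scalings, with -1.53, -1.19 and -1.21 on TMM factors. The second peroxisomal citrate synthase, CSY2 (AT3G58750), had 12, 12.3 and 11.8 CPM in mpk8, 17.3, 13.8 and 13.7 CPM in tcp14 and 26.5, 25.2 and 27.4 CPM in wild type after imbibition. In dry seeds CSY2 had 58.6, 62.1 and 56.7 CPM in mpk8, 60, 56.8 and 54.6 CPM in tcp14 and 53.1, 52.5 and 53 CPM in wild type. It fell in each genotype, with -2.30 ± 0.074 in mpk8, -1.93 ± 0.0732 in tcp14 and -1.0 ± 0.07 in wild type, with the call lost on totals in wild type.

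PMDH2 (AT5G09660), a peroxisomal malate dehydrogenase, had the largest rise of all members. It stood at 2.72, 2.62 and 2.13 CPM in mpk8, 4.27, 3.35 and 4.26 CPM in tcp14 and 12, 9.87 and 11.1 CPM in wild type after imbibition and at 0.471, 0.378 and 0.326 CPM in mpk8, 0.259, 0.385 and 0.222 CPM in tcp14 and 0.385, 0.935 and 0.416 CPM in wild type in dry seeds, where it rested on 3 to 11 pairs per library. PMDH2 rose under both scalings, with 2.65 ± 0.285 in mpk8, 3.79 ± 0.285 in tcp14 and 4.19 ± 0.224 in wild type. The second enzyme of this activity, PMDH1 (AT2G22780), had log2 fold changes of 0.05 ± 0.0495 in mpk8, 0.28 ± 0.0497 in tcp14 and 0.56 ± 0.0499 in wild type and did not pass in mpk8. On totals PMDH1 was called higher in mpk8 too. The aconitase ACO3 (AT2G05710) had 596, 649.9 and 650.3 CPM in mpk8, 734, 716 and 709 CPM in tcp14 and 1137, 1034 and 1180 CPM in wild type after imbibition. Dry seeds had 689, 698 and 677 CPM in mpk8, 573, 574 and 584 CPM in tcp14 and 669.9, 665 and 654 CPM in wild type. ACO3 rose in tcp14 (0.32 ± 0.0551) and wild type (0.75 ± 0.0553), and in mpk8 it was called lower on TMM factors (-0.12 ± 0.055) and higher on totals (0.70). PCK1, the carboxykinase of gluconeogenesis, stood at 1078, 1141 and 1137 CPM in mpk8, 1307, 1265 and 1227 CPM in tcp14 and 1744, 1599 and 1781 CPM in wild type after imbibition. Dry seeds held 1380, 1414 and 1393 CPM in mpk8, 1375, 1290 and 1297 CPM in tcp14 and 1223, 1248 and 1268 CPM in wild type. PCK1 rose in wild type (0.45 ± 0.0581), did not pass in tcp14 (-0.06 ± 0.058) and in mpk8 was called lower on TMM factors (-0.32 ± 0.058) and higher on totals (0.50). On totals PCK1 was called higher in tcp14 too, and so in every genotype.

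Of the 8 peroxins, 7 fell and 1 rose in each genotype on TMM factors, where 38.7%, 39.3% and 40.1% of all tested genes fell in mpk8, tcp14 and wild type. On totals 3, 4 and 2 of the 7 stayed lower in mpk8, tcp14 and wild type, and in wild type PEX7 and PEX2 were called higher. PEX5 (AT5G56290), the receptor that brings most matrix proteins to the peroxisome, stood at 120.3, 117 and 124 CPM in mpk8, 112, 108 and 112 CPM in tcp14 and 98.5, 104 and 109.7 CPM in wild type after imbibition. Dry libraries held 262, 248 and 252 CPM in mpk8, 209, 201 and 193 CPM in tcp14 and 227, 227 and 227 CPM in wild type. Its log2 fold change was -1.08 ± 0.0487 in mpk8, -0.86 ± 0.049 in tcp14 and -1.12 ± 0.0492 in wild type, with the wild-type call lost on totals. PEX14 (AT5G62810), the docking protein for this receptor, was lower, with -1.50, -1.33 and -1.32 and was called lower under both scalings in each genotype. PEX6 (AT1G03000), an ATPase that recycles PEX5, had 31.8, 33.3 and 33.2 CPM in mpk8, 32.6, 32.3 and 27.8 CPM in tcp14 and 33.8, 34.2 and 35.3 CPM in wild type after imbibition. In dry seeds PEX6 had 13.7, 14.2 and 15.6 CPM in mpk8, 16.2, 15.9 and 16.5 CPM in tcp14 and 12.9, 14.4 and 15.2 CPM in wild type. PEX6 rose under both scalings, with 1.17 ± 0.074 in mpk8, 0.93 ± 0.0734 in tcp14 and 1.28 ± 0.0763 in wild type. The receptor PEX7 (AT1G29260) was lower, with -0.88, -0.75 and -0.95 on TMM factors, while on totals the calls in mpk8 (-0.06) and tcp14 (-0.03) were lost and wild type was called higher (0.14). The ubiquitin ligase peroxins PEX10 (AT2G26350) and PEX2 (AT1G79810) were lower, with -1.35 and -0.86 in wild type on TMM factors, and on totals PEX10 was called lower and PEX2 higher there.

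Imbibed seeds of the 2 lines were then compared with imbibed wild type. The data show part of the pathway lower in both lines: acyl-CoA oxidases ACX2, ACX3 and ACX4, the multifunctional protein MFP2, both acyl-CoA synthetases and 6 of 8 glyoxylate cycle and gluconeogenesis genes. Over all tested genes 30.8% were called lower in mpk8 and 28% in tcp14 on TMM factors. In mpk8 29 of 36 members (80.6%) were called, 13 higher and 16 lower, where 64.6% of all tested genes were called. In libraries labelled tcp14 24 (66.7%) were called, 8 higher and 16 lower, where 55.2% of all tested genes were called. The members' median log2 fold change was -0.10 in mpk8 and -0.08 in tcp14, beside 0.04 and 0 over all genes. All 16 lower calls of each line were also called lower on library totals. Of the higher calls, 2 of 13 in mpk8 (AIM1 and IBR3) and 0 of 8 in tcp14 were called higher on totals, and 4 (PNC1, ACX1, ICL and PEX5) and 1 were called lower. Totals moved all genes by a median of -0.33 in both comparisons. Such a shift by itself tends to keep lower calls and remove higher ones, so this contrast is not separate evidence for the falls. On totals 26 of 28 called members were lower in mpk8 and 28 of 28 in tcp14, with medians of -0.43 and -0.41. Over all genes 52.3% and 49.4% of calls were higher on TMM factors and 19.8% and 12.6% on totals. Both lines were set against the same wild-type libraries, so their values are given side by side and not as separate evidence.

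In glyoxylate cycle and gluconeogenesis genes, PMDH2 had the largest difference. Its 9 imbibed libraries given above did not overlap between either line and wild type, and the log2 fold change over wild type was -2.13 ± 0.146 in mpk8 and -1.48 ± 0.139 in tcp14 (edgeR adjusted p at most 1.1e-08). CSY2 averaged 12 ± 0.27 CPM in mpk8, 14.9 ± 2.08 CPM in tcp14 and 26.4 ± 1.07 CPM in wild type (SD, n = 3 each), a log2 fold change of -1.14 ± 0.0745 in mpk8 and -0.82 ± 0.0737 in tcp14. ACO3 averaged 632 ± 31.4 CPM, 719.8 ± 13 CPM and 1117 ± 75.3 CPM in the same order, a log2 fold change of -0.82 ± 0.055 in mpk8 and -0.63 ± 0.0549 in tcp14. No library of either line reached the lowest wild-type library for these 3 genes. PCK1 averaged 1119 ± 35.4 CPM, 1266 ± 39.9 CPM and 1708 ± 96.3 CPM, with -0.61 ± 0.0581 in mpk8 and -0.43 ± 0.058 in tcp14. PMDH1 was lower, with -0.39 ± 0.049 in mpk8 and -0.26 ± 0.049 in tcp14, and CSY3 with -0.15 ± 0.0482 in mpk8 and -0.12 ± 0.0483 in tcp14. The signature enzymes of the cycle behaved differently: ICL was called higher in mpk8 on TMM factors (0.21 ± 0.0853) but lower on totals (-0.12), and did not pass in tcp14 (0.17 ± 0.0853, edgeR adjusted p = 0.11). On totals ICL was called lower in tcp14 too. The mpk8 call of ICL was lost without imbibed mpk8 replicate 2 or 3 or imbibed wild-type replicate 1 or 3, and without imbibed tcp14 replicate 1 ICL passed in tcp14 at 0.24. MLS did not pass in either line, with 0.11 ± 0.0653 in mpk8 and 0.03 ± 0.0653 in tcp14, although on totals it was called lower in both (-0.23 and -0.31).

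In beta-oxidation, 5 of 11 genes were lower in imbibed mpk8 and 4 in imbibed tcp14 under both scalings. Of all tested genes, 30.8% and 28% were called lower in the same order on TMM factors. ACX2 averaged 96.3 ± 0.444 CPM in mpk8, 109 ± 5.65 CPM in tcp14 and 159.5 ± 12.2 CPM in wild type, a log2 fold change of -0.73 ± 0.0575 in mpk8 and -0.55 ± 0.0574 in tcp14. Its imbibed libraries were 96.3, 95.8 and 96.7 CPM in mpk8, 114, 110.4 and 102 CPM in tcp14 and 164, 146 and 169 CPM in wild type, without overlap between the lines and wild type. ACX3 was lower, with -0.50 ± 0.0508 in mpk8 and -0.36 ± 0.0508 in tcp14, and ACX4 likewise, with -0.39 ± 0.0534 in mpk8 and -0.34 ± 0.0535 in tcp14. MFP2 averaged 524 ± 18.9 CPM, 555 ± 6.18 CPM and 730 ± 41.9 CPM, with -0.48 ± 0.0512 in mpk8 and -0.39 ± 0.0512 in tcp14 (edgeR adjusted p at most 1e-06). KAT2 was lower in mpk8 (-0.15 ± 0.0589), a call lost without imbibed mpk8 replicate 1 or imbibed wild-type replicate 3, and did not pass in tcp14 (-0.05 ± 0.0589). On totals KAT2 was called lower in both lines. Against this, AIM1 averaged 175 ± 4.6 CPM in mpk8, 165 ± 7.56 CPM in tcp14 and 125 ± 3.73 CPM in wild type. AIM1 was called higher, with 0.48 ± 0.0475 in mpk8 and 0.40 ± 0.0477 in tcp14, and on totals the mpk8 call held at 0.15 and the tcp14 call was lost at 0.06. IBR3 averaged 128 ± 2.95 CPM, 126 ± 6.81 CPM and 93.7 ± 3.56 CPM, with 0.45 ± 0.0505 in mpk8 and 0.42 ± 0.0507 in tcp14, and on totals 0.11 (called) and 0.09 (not called). ACX1 was called higher on TMM factors, with 0.18 ± 0.0562 in mpk8 and 0.24 ± 0.0563 in tcp14, and on totals lower in mpk8 and not called in tcp14. KAT1, KAT5 and ECH2 did not pass in either line on TMM factors, and KAT1 and ECH2 were called lower in both on totals.

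Among lipases and import genes, the alpha/beta-hydrolase AT3G14360 had 46.5, 42.8 and 44.3 CPM in mpk8, 41.1, 45 and 50.7 CPM in tcp14 and 35.2, 32 and 32.2 CPM in wild type. The libraries of both lines all lay above the wild-type ones, and the log2 fold change was 0.43 ± 0.0644 in mpk8 and 0.46 ± 0.0648 in tcp14, though on totals neither line was called (0.09 and 0.12). AT4G24160 was likewise called higher on TMM factors, with 0.29 ± 0.0708 in mpk8 and 0.24 ± 0.0721 in tcp14 and not called on totals. SDP1 was lower in mpk8 (-0.16 ± 0.0537), a call lost without imbibed wild-type replicate 1 or imbibed mpk8 replicate 3 (adjusted p 0.07 and 0.089), and did not pass in tcp14 (-0.10 ± 0.0539) on TMM factors. On totals SDP1 was called lower in both lines. Both synthetases were lower under both scalings, LACS6 with -0.35 ± 0.0537 in mpk8 and -0.25 ± 0.0538 in tcp14 and LACS7 with -0.36 ± 0.0497 in mpk8 and -0.29 ± 0.0498 in tcp14. PNC2 was lower, with -0.33 ± 0.0502 in mpk8 and -0.23 ± 0.0504 in tcp14 under both scalings, while PNC1 in mpk8 was called higher on TMM factors (0.17 ± 0.0553) and lower on totals (-0.16).

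Among the peroxins, in imbibed mpk8 5 of 8 were called higher and 1 lower, and in imbibed tcp14 2 were called higher and 2 lower, on TMM factors. Over all tested genes 33.8% were called higher and 30.8% lower in mpk8, and 27.3% and 28% in tcp14, so the tcp14 peroxins are near that share. None of the higher peroxin calls held on totals, where PEX5 in mpk8 was called lower. PEX10 had 24.4, 24.9 and 26.5 CPM in mpk8, 25.4, 23.8 and 22.8 CPM in tcp14 and 20.2, 20.3 and 20 CPM in wild type, with 0.33 ± 0.0568 in mpk8 and 0.26 ± 0.0576 in tcp14. PEX5 in mpk8 was called higher on TMM factors (0.20 ± 0.0486) and lower on totals (-0.13). In tcp14 PEX5 did not pass on TMM factors (0.08 ± 0.0489) and was called lower on totals. PEX6 was lower in tcp14 (-0.15 ± 0.065) and did not pass in mpk8 (-0.07 ± 0.0643) on TMM factors, and PEX14 passed in neither (-0.05 ± 0.0499 in mpk8 and -0.05 ± 0.0501 in tcp14). On totals both were called lower in both lines. Beside all of these differences, the storage marker share, the RBCS1A level and the endosperm markers given above also differed between the imbibed lines and wild type, and their part in the results was not tested.

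**Figure D3:**
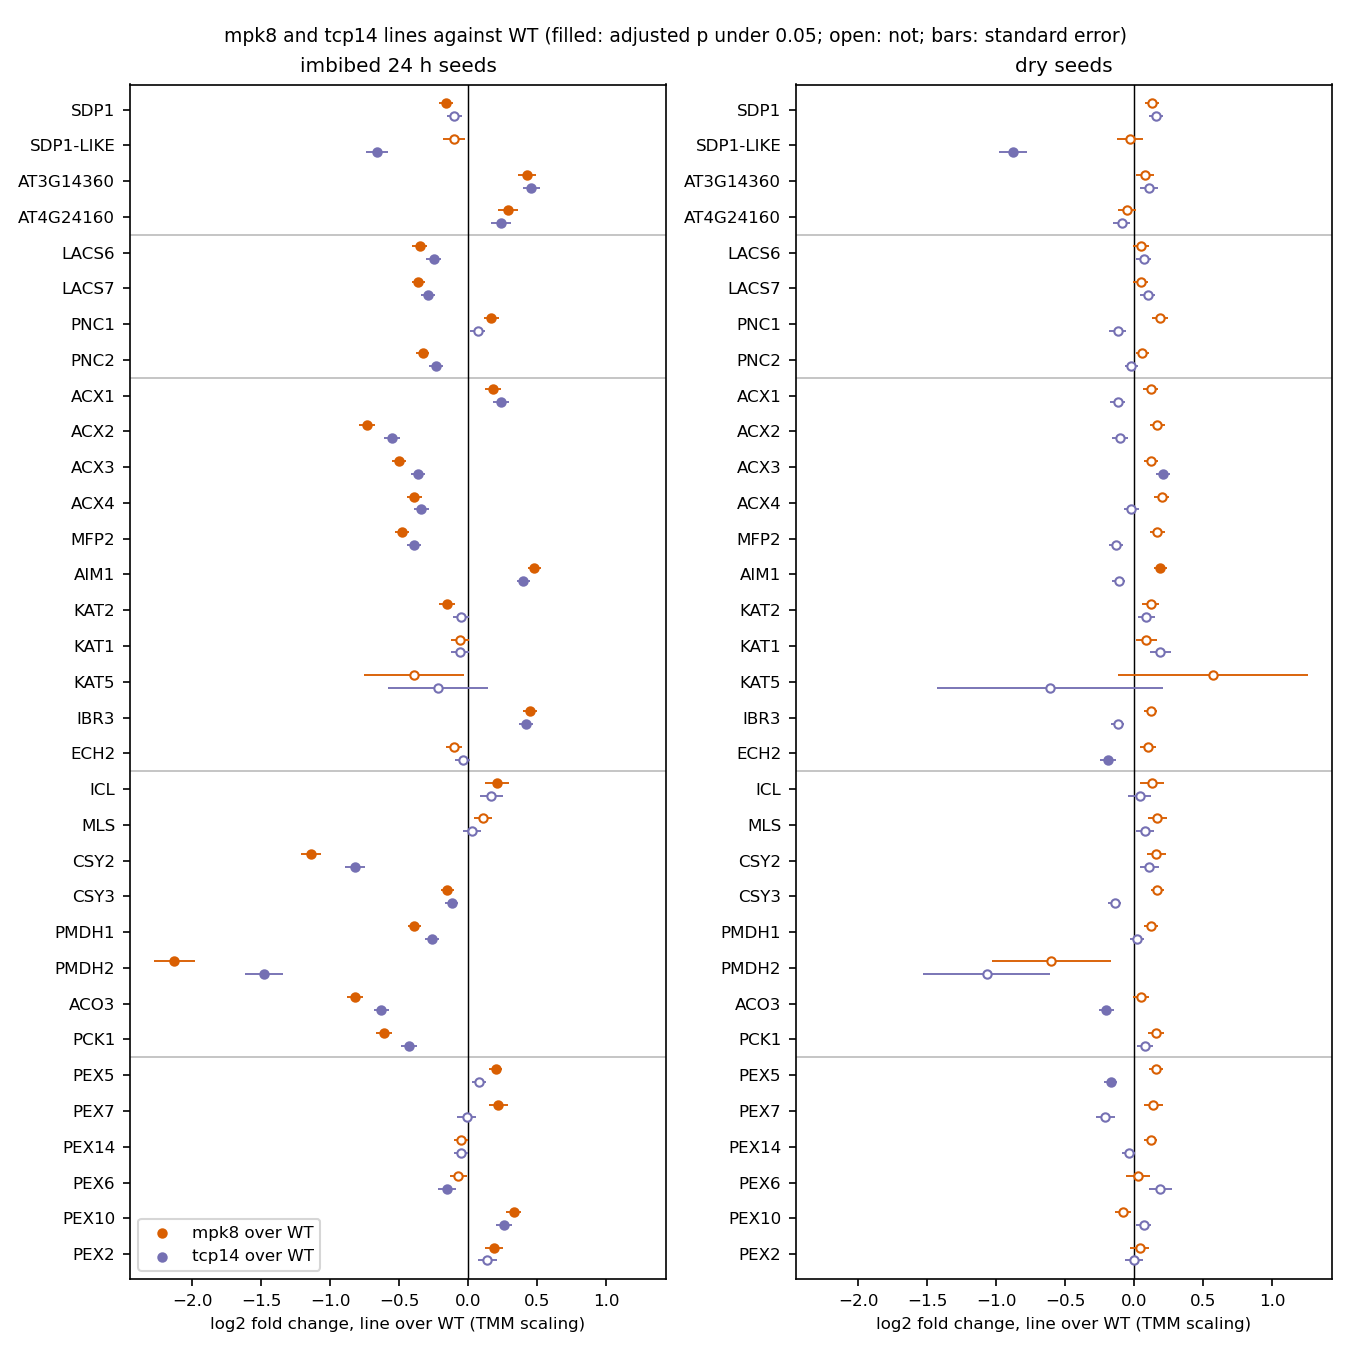
Log2 fold change of each line over wild type on TMM factors (horizontal axes) in imbibed seeds (left) and dry seeds (right), with standard errors as bars, for 33 members grouped by role. In imbibed seeds 16 of all 36 members per line were called lower under TMM factors and under library totals alike, whereas of the higher calls 2 of 13 in mpk8 and 0 of 8 in tcp14 were called higher on totals. Totals moved all genes downward here, which by itself tends to keep lower calls and remove higher ones.

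In dry seeds the number of members called depended on the fit. In dry mpk8 1 of 36 members was called, where 2.62% of all tested genes were called. The count was 7 by the DESeq2 Wald test, 8 with the compared groups alone, 3 on single reads and 2 with all models with a count tested, all higher. The 1 member called in the edgeR fit of all groups was AIM1, with 514, 507 and 525 CPM in mpk8 and 458, 448 and 452 CPM in wild type, a log2 fold change of 0.19 ± 0.0467 (edgeR adjusted p = 0.034). The AIM1 libraries did not overlap, but the call was lost on totals (0.12) and without any 1 of the 6 libraries compared (adjusted p 0.083 to 0.13). The members' median in dry mpk8 was 0.12, beside 0.01 over all genes. The part of the pollen marker difference given above in these values was not tested. In dry libraries labelled tcp14 6 of 36 members were called, 1 higher and 5 lower, where 11.4% of all tested genes were called. Leaving out 1 library brought the count to 3 or 4, on totals it was 2 and with all models with a count tested it was 3. By the DESeq2 Wald test it was 12, and with the compared groups alone also 12, in both cases 1 higher and 11 lower. The members' median there was -0.07, beside 0.02 over all genes.

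In dry tcp14, SDP1-LIKE and ACX3 were called under both scalings. SDP1-LIKE had 12.9, 11.7 and 10.2 CPM in libraries labelled tcp14 against 19.3, 21.6 and 23.4 CPM in wild type. No tcp14 library reached the lowest wild-type library, and the log2 fold change was -0.88 ± 0.101 (edgeR adjusted p = 1e-06). In imbibed seeds SDP1-LIKE was also lower in tcp14 (-0.66 ± 0.0819) and did not pass in mpk8 on TMM factors (-0.10 ± 0.0788), where on totals it was called lower (-0.43). SDP1-LIKE lies on chromosome 3, as TCP14 does. Of the 184 tested genes in its stretch of 2500 locus numbers, 13 (7.07%) differed by at least 2-fold in dry tcp14, against 2.1% of all tested genes. The part of this neighbourhood in the result was not tested. TCP14 itself lies outside the stretch of SDP1-LIKE. Like stretches hold ACX4 (7.26%), CSY2 (5.36%) and ICL (4.35%) on chromosome 3 and PEX7 (6.92%) on chromosome 1, none of which was called in dry tcp14.

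ACX3 was higher in dry tcp14, with 482, 461 and 455 CPM against 402, 398 and 413 CPM in wild type (0.21 ± 0.0501), and was called on totals too. Also lower in dry tcp14 were ACO3, with a log2 fold change of -0.20 ± 0.0554, ECH2, with -0.19 ± 0.0593, and PEX5, with -0.17 ± 0.0487. None of these 3 was called on totals, and each was lost when single libraries were left out (adjusted p 0.052 to 0.2). ECH2 was lost without any 1 dry wild-type library or dry tcp14 replicate 1 or 3, PEX5 without any 1 dry wild-type library or dry tcp14 replicate 2 or 3, and ACO3 without dry wild-type replicate 1 or 2 or dry tcp14 replicate 1 or 2. Of the 6 dry calls, SDP1-LIKE and ACX3 kept theirs in every such fit. SDP1 did not pass in either dry line, with 0.13 ± 0.053 in mpk8 and 0.16 ± 0.0529 in tcp14. Without dry wild-type replicate 1 the tcp14 value of SDP1 was 0.19 and passed edgeR's quasi-likelihood test (adjusted p = 0.047).

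The difference in imbibition response between each line and wild type was tested as an interaction, in which 39% of all tested genes were called for mpk8 and 33.2% for tcp14. Of the 36 members, 24 (66.7%) were called for mpk8, 7 with a higher and 17 with a lower response than wild type, and 21 (58.3%) for tcp14, 8 higher and 13 lower. The members' medians were -0.18 and -0.03, beside 0.07 and -0.02 over all genes. All 17 and 13 lower calls held on library totals, whereas of the higher calls 0 of 7 and 1 of 8 (IBR3) held. Totals moved the interactions of all genes by a median of -0.27 for mpk8 and -0.36 for tcp14, which by itself tends to keep lower calls and remove higher ones. On totals 24 of 24 called members were lower for mpk8 and 20 of 21 for tcp14, and over all genes 61.5% and 58% of calls were higher on TMM factors and 26.4% and 12% on totals. ACO3 differed by -0.88 ± 0.0779 for mpk8 and -0.43 ± 0.0778 for tcp14, PCK1 by -0.77 ± 0.0821 for mpk8 and -0.52 ± 0.0821 for tcp14 and CSY2 by -1.30 ± 0.101 for mpk8 and -0.93 ± 0.101 for tcp14 (edgeR adjusted p at most 0.00016 for ACO3, 4.3e-05 for PCK1 and 4.3e-07 for CSY2). MFP2 differed by -0.65 ± 0.0728 for mpk8 and -0.27 ± 0.0728 for tcp14, and ACX2 by -0.90 ± 0.0815 for mpk8 and -0.45 ± 0.0817 for tcp14. The 2 lines share the wild-type libraries in these tests. PMDH2 was called for mpk8 (-1.54 ± 0.478), a call lost without dry wild-type replicate 1 or dry mpk8 replicate 1 (adjusted p 0.05 and 0.077), and not for tcp14 (-0.40 ± 0.527, edgeR adjusted p = 0.64). AIM1 and IBR3 fell less in the lines on TMM factors, by 0.29 ± 0.0666 for mpk8 and 0.51 ± 0.0668 for tcp14 for AIM1 and 0.32 ± 0.0705 for mpk8 and 0.54 ± 0.0708 for tcp14 for IBR3. On totals AIM1 was called for neither line, and IBR3 for tcp14 alone.

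Ratios between 2 members of the same step, or for ICL to MLS of successive steps, do not depend on how libraries are scaled. They were taken within each library as pairs per kb of gene model. The 7 ratios were chosen after the values above were seen. Pairs that fit several models equally well were removed before deposit, which can lower a member with a close paralog in every library. With 3 libraries a group the exact two-sided permutation test cannot go below p = 0.1, and 0.13 after Benjamini-Hochberg adjustment over the 49 comparisons made, so none can pass 0.05. The AIM1 to MFP2 ratio averaged 0.336 ± 0.0211 in imbibed mpk8, 0.299 ± 0.0167 in imbibed tcp14 and 0.173 ± 0.0147 in imbibed wild type (SD, n = 3 each). In dry seeds it was 0.849 ± 0.0233, 0.849 ± 0.00988 and 0.841 ± 0.0117 in the same order. No imbibed library overlapped a dry one, and the lines and wild type were apart in imbibed seeds (exact p = 0.1, adjusted 0.13, for each line) but overlapped in dry seeds.

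The CSY3 to CSY2 ratio averaged 16.4 ± 0.615 in imbibed mpk8, 13.7 ± 2.22 in imbibed tcp14 and 8.29 ± 0.127 in imbibed wild type. Dry seeds had 9.62 ± 0.35, 8.04 ± 0.417 and 9.56 ± 0.234. In imbibed seeds the libraries of both lines lay above wild type, from 11.1 to 17.1 against 8.17 to 8.42. The PMDH1 to PMDH2 ratio averaged 85.2 ± 13.6, 58.9 ± 10.8 and 25.2 ± 2 in imbibed mpk8, tcp14 and wild type, so PMDH1 remained the more abundant per kb in every library. PNC1 to PNC2 averaged 1.87 ± 0.0557, 1.63 ± 0.194 and 1.32 ± 0.0545 in imbibed seeds and was below 1 in every dry library. SDP1 to SDP1-LIKE averaged 1.52 ± 0.133, 2.34 ± 0.0812 and 1.6 ± 0.152 in imbibed seeds, and 5.25 to 5.82 in dry mpk8, 9.12 to 11.2 in dry tcp14 and 4.47 to 5.61 in dry wild type. Only the libraries labelled tcp14 stood apart from wild type in this ratio, in both states. LACS7 to LACS6 averaged 1.01 ± 0.0809, 0.984 ± 0.0476 and 1.02 ± 0.0334 in imbibed seeds, where both lines overlapped wild type, and 0.638, 0.65 and 0.637 in dry seeds. ICL to MLS averaged 3.24 ± 0.0836, 3.31 ± 0.26 and 3.01 ± 0.135 in imbibed seeds and 2.26, 2.27 and 2.33 in dry seeds.

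**Figure D4:**
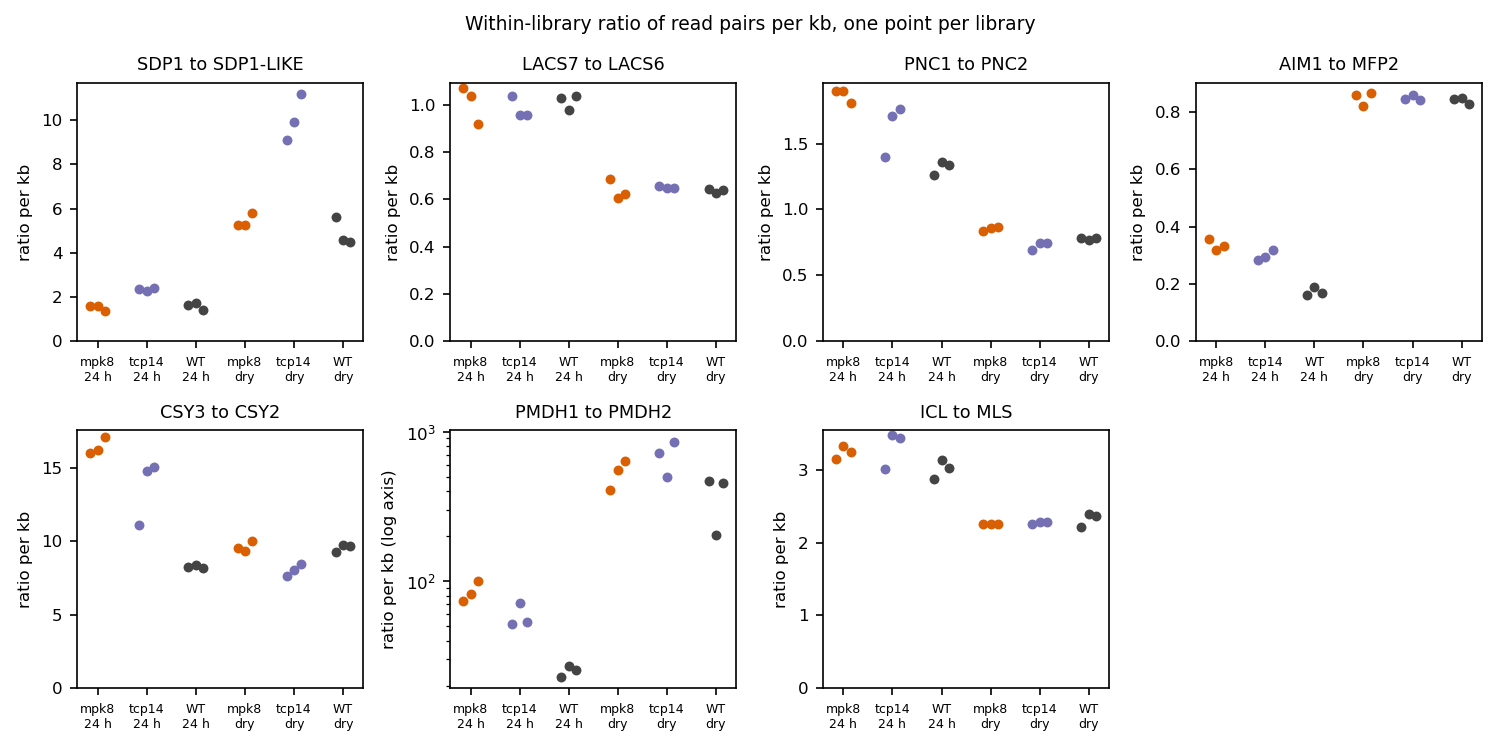
Ratio of pairs per kb between 2 members within each library (1 point per library, linear axes from 0 except PMDH1 to PMDH2, which has a log axis), imbibed groups left and dry groups right. The AIM1 to MFP2 ratio averages 0.336, 0.299 and 0.173 in imbibed mpk8, tcp14 and wild type and about 0.84 to 0.85 in the dry groups.

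Another 44 genes of oil use and peroxisome upkeep were counted beside the members, of which 43 had enough counts to be tested. They too were listed from general knowledge, with earlier results of these data known. With imbibition 11 rose and 28 fell in mpk8, 12 rose and 25 fell in tcp14, and 16 rose and 23 fell in wild type, on TMM factors. These calls made up 90.7%, 86% and 90.7% of the 43, where 83.1%, 83.1% and 86.1% of all tested genes were called. On totals the splits were 24 and 12, 24 and 11, and 29 and 12 in the same order. GLI1 (AT1G80460), the glycerol kinase that takes up glycerol from oil, stood at 29.9, 35.1 and 34.9 CPM in mpk8, 45.7, 38.5 and 38.3 CPM in tcp14 and 71.2, 64.4 and 71.5 CPM in wild type after imbibition and at 3.06, 2.65 and 3.83 CPM in mpk8, 2.46, 2.21 and 3.04 CPM in tcp14 and 3.37, 2.55 and 2.81 CPM in wild type in dry seeds. GLI1 rose under both scalings, with 3.39 ± 0.123 in mpk8, 3.98 ± 0.126 in tcp14 and 4.57 ± 0.125 in wild type. ECI3 (AT4G14440), an enoyl-CoA isomerase, stood at 8.81, 9.67 and 12.1 CPM in mpk8, 17.7, 17.4 and 14.1 CPM in tcp14 and 38.5, 32.2 and 36.6 CPM in wild type after imbibition. In dry seeds ECI3 held 0.236, 0.0756 and 0.244 CPM in mpk8, 0.259, 0.481 and 0.0741 CPM in tcp14 and 0.0961, 0.17 and 0.208 CPM in wild type, so its libraries did not overlap between the states and it was called higher under both scalings. The catalase CAT1 (AT1G20630), which removes peroxisomal hydrogen peroxide, had the opposite course under both scalings, with -2.94 ± 0.064 in mpk8, -2.69 ± 0.0646 in tcp14 and -3.04 ± 0.0651 in wild type.

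Against imbibed wild type, 14 of the 43 were higher and 16 lower in imbibed mpk8, and 11 higher and 15 lower in imbibed tcp14, on TMM factors. These were 69.8% and 60.5% of the 43, where 64.6% and 55.2% of all tested genes were called. On totals 7 were higher and 27 lower in mpk8, and 4 higher and 32 lower in tcp14. CAT3 (AT1G20620), a second catalase, stood at 2360, 2247 and 2276 CPM in mpk8, 2056, 2106 and 2525 CPM in tcp14 and 1038, 1144 and 1042 CPM in wild type in imbibed seeds. All libraries of both lines lay above the wild-type ones, with 1.09 ± 0.0797 in mpk8 and 1.05 ± 0.0796 in tcp14. ACN1 (AT3G16910), a peroxisomal acetyl-CoA synthetase, was also higher, with 0.83 ± 0.0789 in mpk8 and 0.73 ± 0.0797 in tcp14. The peroxisome division factor PEX11E (AT3G61070) had 30.8, 34.5 and 33.2 CPM in mpk8, 49.4, 55.1 and 43.4 CPM in tcp14 and 90.9, 85.8 and 97.1 CPM in wild type, below wild type in every library of both lines, with -1.48 ± 0.0725 in mpk8 and -0.89 ± 0.0709 in tcp14. ECI3 was lower, with -1.82 ± 0.118 in mpk8 and -1.12 ± 0.114 in tcp14. The calls of CAT3, ACN1, PEX11E and ECI3 held on totals. In dry seeds 2 of the 43 (4.65%) were called in mpk8, both higher, and 10 (23.3%) in tcp14, 4 higher and 6 lower, where 2.62% and 11.4% of all tested genes were called. On totals the calls were 1 higher in mpk8 and 4 higher and 5 lower in tcp14.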

How the data were processed

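Seed RNA was selected for polyadenylated transcripts and sequenced as stranded paired-end libraries, per the labels. TopHat2 and Bowtie2 and the build TAIR10 are named in the submitters' processing notes; versions are not given in the sources used here. The authors deposited 1 table per library with counts of read pairs per gene model, per the file headers, and pairs with several equally good hits were removed, which can lower close paralogs. Model length, another deposited column per the file headers, served for levels per kb. The counts were tested with edgeR 4.0.16 in R 4.3.3: models kept by filterByExpr (minimum count 10), TMM factors, 1 mean per group over all 18 libraries, 12 residual degrees of freedom, quasi-likelihood F test and Benjamini-Hochberg adjustment over 18061 genes, with a call at adjusted p under 0.05. A standard error is the fold change over the root of F. Alternatives were library totals, DESeq2 1.42.0, other filters, the compared groups alone, counts of single reads, a block for the replicate number and the omission of each library in turn. The test was checked on simulated counts in which few genes changed. That check did not cover comparisons with most genes called, or the choice of scaling. Members and gene lists were chosen with earlier results of these data known. Named for values per library are SDP1, LACS6, MFP2, KAT2, ICL, MLS, PCK1, PEX5 and the 3 most positive and negative called members per comparison; some others were named after their values were seen. The single values of 3 members are not reported here, though they stay in the counts and medians. The depth of 12170793 to 21233207 pairs limits the precision of KAT5 and dry PMDH2. Protein sequences were not used here.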

Additional observations from a re-analysis of the deposited data

Results flagged for a closer look

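The following members responded differently to imbibition in a line and in wild type, by the interaction test of the edgeR fit (line minus wild type, log2, on TMM factors). For mpk8 the response of SDP1 differed by -0.29, that of LACS6 by -0.41, of MFP2 by -0.65, of KAT2 by -0.27 and of PCK1 by -0.77. PMDH2 differed by -1.54, CSY2 by -1.3 and ACX2 by -0.9. The responses of AT4G24160 (0.34), AT3G14360 (0.34) and PEX10 (0.4) were above wild type. The KAT2 call was lost without imbibed mpk8 replicate 1, and the PMDH2 call without dry wild-type replicate 1 or dry mpk8 replicate 1. For libraries labelled tcp14 the response of SDP1 differed by -0.26, that of LACS6 by -0.31, of MFP2 by -0.27, of PCK1 by -0.52, of CSY2 by -0.93 and of ACX3 by -0.57. The responses of PEX5 (0.26), AIM1 (0.51) and IBR3 (0.54) were above wild type. On library totals all of the negative differences were still called, and of the positive ones IBR3 in tcp14 alone was. Totals moved the interactions of all genes downward for both lines, which by itself tends to keep negative differences. The 2 lines share the wild-type libraries. The share of pairs in seed storage markers also differed between the imbibed groups, and its part in these differences was not tested.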

How the results depend on the processing

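Scaling on library totals turned single genes round and the cause was not tested. On library totals the members' median log2 fold change was -0.05, 0.02 and 0.35 for imbibition in mpk8, tcp14 and wild type, 0.05 and -0.43 for dry and imbibed mpk8 over wild type, -0.04 and -0.41 for tcp14, and -0.45 and -0.39 for the mpk8 and tcp14 interactions. The dry counts became 0 (mpk8) and 2 (tcp14). With imbibition 7, 4 and 7 members in mpk8, tcp14 and wild type were called lower on TMM factors and higher on totals, and over imbibed wild type 4 in mpk8 and 1 in tcp14 were called higher on TMM factors and lower on totals. Examples are, with imbibition, KAT2 (0.49) and MLS (0.72) in wild type, LACS6 (0.67), MFP2 (0.61), MLS (0.39), ACO3 (0.70) and PCK1 (0.50) in mpk8 and MLS (0.30) in tcp14; over imbibed wild type ICL (-0.12) and PEX5 (-0.13) in mpk8. The tcp14 interaction of PEX5 changed sign (-0.10) without a call (edgeR adjusted p = 0.27). DESeq2 size factors gave a dry tcp14 median of -0.09, and the DESeq2 Wald test 7 dry mpk8 calls, 12 dry tcp14 calls and a dry tcp14 median of -0.09. Testing all models with a count gave 2 and 3 dry calls, the compared groups alone 8 and 12 with a dry tcp14 median of -0.04, and single reads 3 in dry mpk8. A minimum of 2-fold left 17, 16 and 18 members for imbibition in mpk8, tcp14 and wild type, 2 and 1 for imbibed mpk8 and tcp14, 0 and 0 in dry seeds, and 2 and 0 for the interactions. With each library left out in turn, the counts ran from 31 to 33, 32 to 33 and 34 to 34 for imbibition in mpk8, tcp14 and wild type, 0 to 0 and 26 to 29 for dry and imbibed mpk8, 3 to 4 and 21 to 26 for dry and imbibed tcp14, and 21 to 24 and 20 to 23 for the interactions. The medians ran from -0.89 to -0.85, -0.71 to -0.69, -0.77 to -0.69, 0.10 to 0.13, -0.13 to -0.07, -0.07 to -0.02, -0.09 to -0.07, -0.20 to -0.16 and -0.09 to -0.01 in the same order. A replicate block moved no count of calls by over 1.5 times. Same-numbered libraries correlated from r = -0.222 to 0.38 over 33 pairs, 13 of them over 0.1, so the numbers were not taken to pair samples. Among pairs of replicate 1 alone r ran from -0.015 to 0.33 and was mostly positive. Whether those libraries share a deviation was not tested apart from the block. Under the block SDP1 in dry tcp14 (0.16) passed edgeR's test at an adjusted p = 0.036.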
